A study of Nicotiana tabacum with 8 samples.

Results

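Leaves of the tobacco cultivar K326 (Nicotiana tabacum) were compared after 1 day at 4 °C and under warm control conditions. K326 is the cultivar that the study describes as the more cold tolerant of its pair. The other cultivar, CB-1, enters as a comparison and in the spread behind the p-values, which was estimated from all 8 libraries. The members are the 4 K326 libraries of the 8 in the series, named KC1 and KC2 for the control and KT1 and KT2 for the cold, and the 25779 of 135146 assembled unigenes whose linear value was at least 1 in at least 2 of these 4 libraries. Control plants had days of 28 °C with 16 h of light, plants were used at the six-leaf stage, and each sample pooled the top 2 leaves of 6 plants. No transgene, mutation or agent other than the temperature is named for any group. The pooled plants leave the spread between single plants unmeasured, and the p-values measure only the spread between 2 libraries a group.

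In plants that can acclimate to cold, a drop in temperature opens calcium channels and acts on membranes, and the signal reaches a small family of transcription factors, the C-repeat binding factors (CBF or DREB1). These bind the dehydration-responsive element in the promoters of cold-regulated (COR) genes, whose products stabilise membranes and help cells to keep water. DREB2 factors are better known from drought and heat, and abscisic acid, jasmonate, cytokinin and ethylene signalling all feed into the same response. Tobacco comes from a warm region and is known as a chilling-sensitive crop. It is also an allotetraploid, so near-identical copies of a gene from its parent species may be joined in 1 unigene or split over several.

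The unigenes were assembled without a genome and carry numbers such as c73886_g1, where the part before _g is a Trinity component, a set of related assembled sequences. Gene names, given by the study, follow the best protein match. In all, 415 unigenes of the table were named, and 343 of them passed the filter. The roles stated below are those known for the Arabidopsis protein of that name unless another source is given. Values are log2(value + 1) of an abundance estimate, so a level of 0 is a listed abundance of 0. The table holds no read counts, so the number of reads behind each value is unknown. A 0 may be a missing transcript or an estimate that failed. Where both libraries of a group were at 0 the library values are given without a fold change. Such unigenes enter the medians of lists with their difference in log2(value + 1), whose size depends on the pseudocount. A unigene was called as risen or fallen at an adjusted p under 0.05 and a log2 change over 1 in size (limma, Benjamini-Hochberg adjustment over all 25779 unigenes). An exact permutation test of 2 libraries against 2 cannot give a p under 0.333.

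The study's own quantitative PCR primers mark short stretches of several unigenes on which the account below turns, namely a CBF factor, a DREB2 factor, the COR413 membrane protein, a WRKY factor, a cytokinin response factor and a clock gene. They are shown because no other letters tied to these transcripts can be given. All are written 5′ to 3′ and in lower case throughout, with no base marked. The forward and reverse primers of a pair lie on opposite strands, so the reverse lines are not transcript sequence as written.

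DREB1F (c64765_g1) forward: cagaagagaacgcggcaaat
DREB1F (c64765_g1) reverse: catcccagctgaaacaaccc
DREB2A (c73886_g1) forward: gttgaagtcttcctgccgtc
DREB2A (c73886_g1) reverse: gactccactggatacctcgg
COR413 (c70842_g1) forward: gggtctggtgagggtaatgt
COR413 (c70842_g1) reverse: ggctcttctttcacgacgac
WRKY33 (c78380_g1) forward: atccaaagcctcagtccact
WRKY33 (c78380_g1) reverse: caatgtcctcgtcgccaaaa
CRF6 (c64865_g1) forward: tttcgtggggttaggcagag
CRF6 (c64865_g1) reverse: gtcaaagcatcaggaccacg
ELF4 (c63831_g1) forward: acgaccttggaaatgttgcc
ELF4 (c63831_g1) reverse: ctccaacagattccggcaag

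The 2 controls did not carry the same set of transcripts. Of all unigenes in the table, 122 had a log2 value of at least 3 in KC1 and were at 0 in KC2, and 80 had such a value in KC2 and were at 0 in KC1. For the cold libraries the same counts were 16 (KT1 on, KT2 at 0) and 15 (KT2 on, KT1 at 0). Of the 122, 89 reached a value of 1 in KT1 and 82 in KT2, against 13 in CT1 and 16 in CT2, the cold libraries of CB-1. Of the 80, only 18 and 22 did so in KT1 and KT2, against 60 and 65 in CT1 and CT2. Among the controls, the library labelled KC2 shared these 80 with CC1 (76) rather than with CC2 (17), and KC1 shared its 122 with CC2 (102) rather than with CC1 (22). The pattern was thus crossed: on these transcripts the library labelled KC2 sided with CC1, CT1 and CT2, and the library labelled CC2 with KC1, KT1 and KT2. The labels of KC2 and CC2 may have been exchanged, which cannot be settled from the table. Groups are kept as labelled, and every change below was also computed without KC2 and with CC2 in its place.

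**Figure D1:**
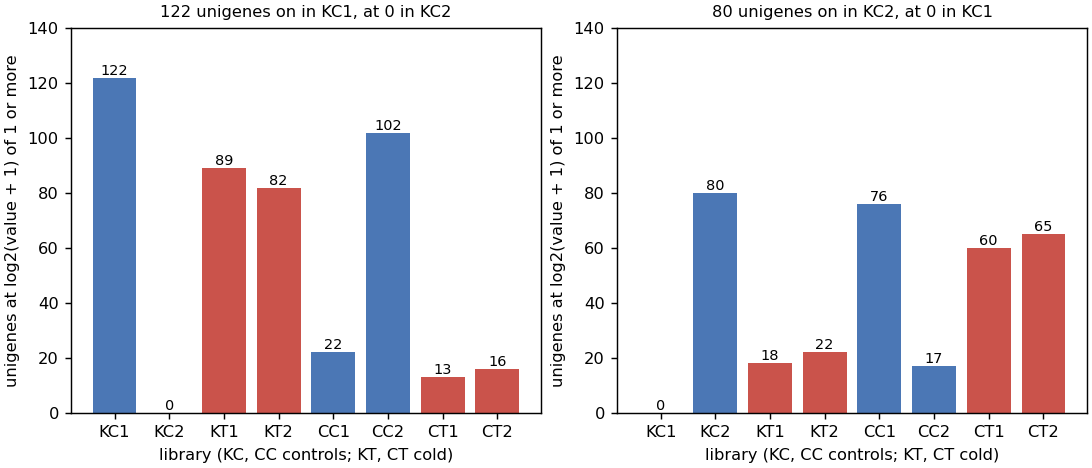
Unigenes with a log2(value + 1) of at least 1 in each of the 8 libraries (bars, number of unigenes; blue, control libraries; red, cold libraries), among the 122 that were on in KC1 and at 0 in KC2 (left) and the 80 with the opposite pattern (right). KT1 and KT2 hold 89 and 82 of the first set and 18 and 22 of the second.

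The K326 libraries had 43354 to 48065 unigenes above 0. They differed in depth: by the study's read totals, KC1 had the fewest high-quality reads of the K326 libraries and KC2 the most. The part of depth in the differences between the controls was not tested. The median absolute difference between replicates was 0.23 for the controls and 0.28 for the cold libraries (log2 scale). Pearson's correlation across the tested unigenes, which do not count as independent replicates, was 0.928 between KC1 and KC2, 0.943 between KT1 and KT2, and 0.582 to 0.666 between a control and a cold library. As a check of the tissue, none of the names given is a photosystem, RuBisCO or chlorophyll-binding protein, so leaf identity could not be checked by such genes. Of 6 flower, pollen and fruit genes, 3 passed the filter, and between 3 and 5 were above 0 in each K326 library. Their summed linear values were 6.30 (KC1), 28.6 (KC2), 16.3 (KT1) and 16.6 (KT2). The fruit protein 2A11 and the floral regulator PMADS1 were above 0 in KC2 (log2 values of 3.85 and 2.24) and at 0 in the other 3 K326 libraries. PMADS1 was also at 1.87 (CC1), 2.32 (CT1) and 1.98 (CT2) and at 0 in CC2, the crossed pattern described above, and AGL62, a MADS-box factor, was above 0 in the same 4 libraries. The part of such genes in the results was not tested.

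Cold changed a large share of the leaf transcriptome. In total, 10800 of the tested unigenes (41.9%) passed the threshold, of which 4612 rose (17.9%) and 6188 fell (24.0%). Non-overlap of cold and control libraries was more common still, with 20484 unigenes (79.5%). The typical called rise was a log2 change of 1.91 and the typical called fall −1.60 (medians). Large rises were more frequent than large falls: 859 unigenes rose and 350 fell by more than 3, and 123 rose and 7 fell by more than 5.

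The direction of the majority rested on the scaling of the libraries. The median log2 change of all tested unigenes was −0.33, so that the typical unigene had a lower deposited value in the cold. After median-ratio scaling of the libraries this median was 0.015, and 5554 unigenes rose (21.5%) while 4196 fell (16.3%). Risers were then 57.0% of the calls, against 42.7% in the deposited values. The medians of the gene lists below kept their sign under this scaling and under quantile normalization. Without KC2, 3825 rose and 5356 fell, and with CC2 in place of KC2 the counts were 4778 and 5637.

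**Figure D2:**
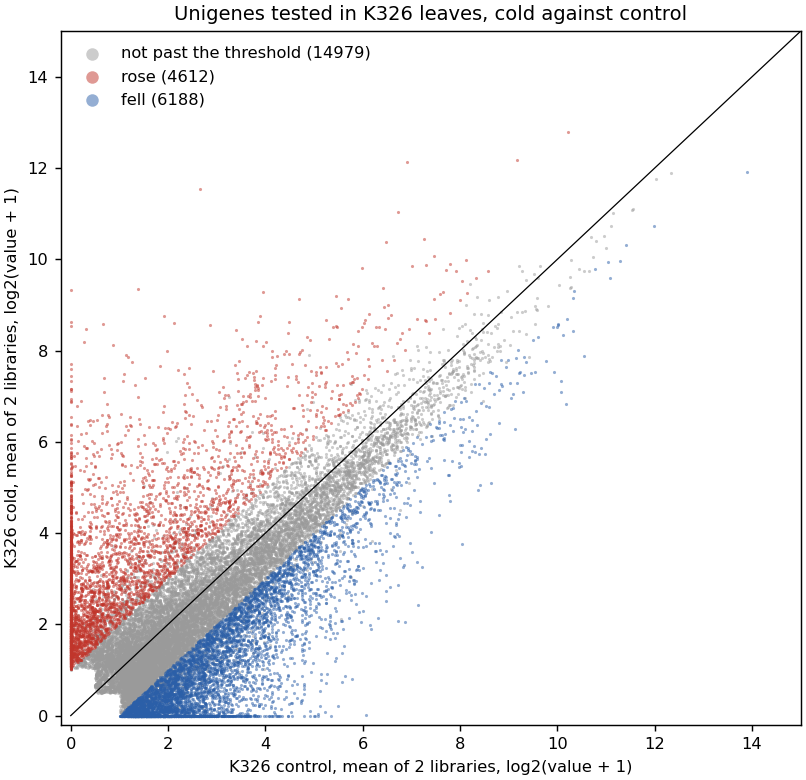
Mean log2(value + 1) of the 2 control libraries (horizontal axis) and of the 2 cold libraries (vertical axis) for each of the 25779 tested unigenes, with those that rose in red (4612), those that fell in blue (6188) and the rest in grey; the line marks equal values. Risers reach farther from the line than fallers and many of them stand on the vertical axis, at 0 in both controls.

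Many calls were switches between a listed 0 and a measurable level. Of the risers, 1659 (36.0%) were at 0 in both controls, and of the fallers 1282 (20.7%) were at 0 in both cold libraries. A unigene that passed the filter only through the cold libraries had to differ upwards, and of 3337 such unigenes 2745 were called as risen. Likewise, of 4394 that passed only through the controls, 3108 were called as fallen. The share of calls was highest in the lowest range: 24.6% rose and 31.8% fell among unigenes with a mean log2 value up to 1. Passing the filter with a mean below 1 needs libraries that differ, so this range favoured unequal unigenes. At means of 1 to 2 the shares were 17.9% and 23.3%, and above 6 they were 14.9% and 17.0%. Unigenes of the same Trinity component mostly moved together. In 1254 components more than 1 unigene was called, and in 1014 of them all called unigenes had the same direction, while 240 held both a riser and a faller.

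The unigenes with the widest changes carry no name in the sources used here. Among called unigenes above 0 in all 4 libraries, the 5 widest rises ran from 6.77 to 8.89 on the log2 scale. One of them, c70217_g1, rose from 0.90 and 0.44 to 8.79 and 8.37, a linear ratio of 631 between the group means. The 5 widest falls ran from −4.82 to −4.42. Of these, c54220_g1 was at 7.16 and 7.12 in the controls and at 2.82 and 2.02 in the cold, a linear ratio of 30.7 in favour of the controls (log2 change −4.72, standard error 0.33, limma adjusted p = 0.000323). Among unigenes listed at 0 in one group, c65313_g1 was at 0 in both controls and at 9.16 and 8.08 in the cold, and c74819_g3 was at 5.25 and 4.81 in the controls and at 0 in both cold libraries.

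For named genes, 20 lists of related function were used, with 226 members. Most names come from a study sheet that starts with the unigenes whose responses differ most between K326 and CB-1: in its rows of the table the median size of that difference was 1.99, against 0.33 over all tested unigenes. The lists are therefore no independent evidence of a direction, and a high count in a list says little about the pathway as a whole. Beside the lists' counts stand the shares over all tested unigenes, 17.9% risen and 24.0% fallen. Members whose linear value was under 1 in both libraries of a group passed the filter only through the other group. The filter fixed the direction of such members in every list, also where this is not repeated below. Fewer cells of a type and less RNA per cell cannot be told apart in such whole-leaf samples.

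**Figure D3:**
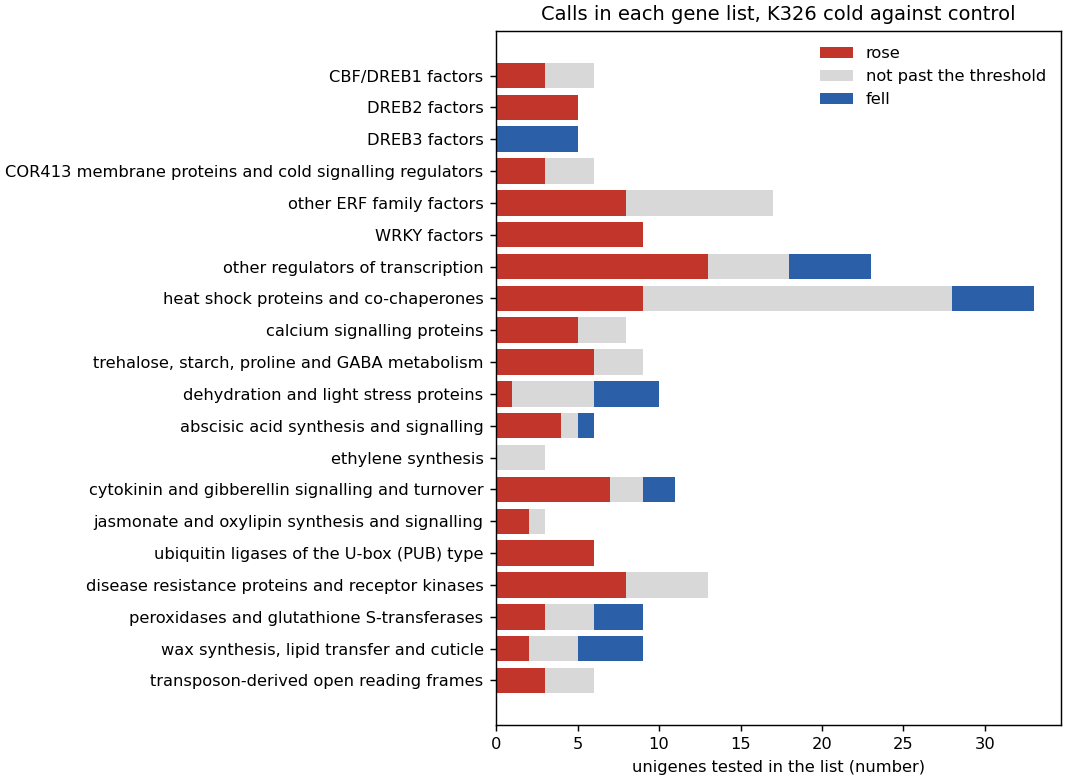
Number of tested unigenes in each of the 20 gene lists (horizontal bars) that rose (red), did not pass the threshold (grey) or fell (blue) in K326 cold against control. The WRKY, DREB2 and PUB lists hold risers only (9, 5 and 6), the DREB3 list fallers only (5), and the heat shock list 9 risers, 5 fallers and 19 that did not pass. Many members of the WRKY, DREB2, PUB and DREB3 lists passed the filter through a single group, which fixed their direction.

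The DREB families differed in direction, which for all called members but DREB3 c71296_g1 was fixed by the filter. All 5 tested DREB2 unigenes rose from a listed 0 in both controls, and all 5 DREB3 unigenes fell, while 3 of the 6 tested DREB1 unigenes rose and none fell. The median log2 change was −1.76 for DREB3 and 2.17 for DREB1, beside −0.33 over all tested unigenes. The DREB1 median was 1.2 without KC2, 3.25 without KC1 and 1.36 with CC2 in place of KC2. The DREB2 members are activators that bind the same element as the CBF factors.

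DREB2H (c71056_g1) was at 0 in both controls and reached 5.66 (KT1) and 4.84 (KT2) (limma adjusted p = 0.000609). DREB2A (c73886_g1) was at 0 in both controls and at 4.35 and 4.16 in the cold (limma adjusted p = 0.000701). DREB2C (c74172_g1), known from heat, was at 0 in both controls and at 2.93 and 3.33 in the cold. The other tested DREB2H unigenes reached 3.54 to 4.79 in the cold, and another unigene named DREB2A (c70895_g1), at 0.33 and 1.85 in the cold, missed the filter. With both controls at 0 these 5 could pass the filter only through the cold libraries, so their direction was fixed by the filter.

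Of the DREB1 unigenes, DREB1F (c64765_g1) was at 0 in both controls and at 5.38 and 6.0 in the cold (limma adjusted p = 0.0046). A second DREB1F (c67621_g1) was at 0.36 and 0 in the controls and at 2.48 and 4.52 in the cold, and DREB1B (c70702_g2) was at 0 in both controls and at 1.64 and 2.29 in the cold. These 3 rose, and in all of them KT2 was the higher cold library. All 3 passed the filter only through the cold libraries, so their direction was fixed by the filter. The remaining members did not pass, and in them the controls disagreed. DREB1D (c80221_g1) had values of 2.01 (KC1), 0 (KC2), 2.17 (KT1) and 2.72 (KT2) (limma adjusted p = 0.14, and 0.0318 without KC1, where it was called as risen), and the second DREB1B (c79563_g2) had values of 3.72 (KC1), 0 (KC2), 2.42 (KT1) and 3.58 (KT2) (limma adjusted p = 0.485). The DREB1D and DREB1B unigenes of component c79563 both lay above 0 in KC1 and at 0 in KC2, and without KC2 their changes had the opposite sign, at −0.89 and −0.71. A further DREB1F (c24612_g1), above 0 only in KT2 at 1.18, missed the filter.

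The DREB3 factors, a branch of the family less studied in cold, were present in both controls and low or at 0 in the cold. DREB3 (c71296_g1) was at 4.08 and 3.27 in the controls and at 1.44 and 1.81 in the cold (log2 change −2.05, standard error 0.33, limma adjusted p = 0.00357). The other 4 had control values of 1.25 to 2.50 and cold values of 0 to 0.97. These 4 passed the filter only through the controls, so their direction was fixed by the filter. In each DREB3 unigene the cold libraries lay below both controls, beside 79.5% of all tested unigenes whose groups did not overlap. KT1 was in each the lower or equal cold library. For c64231_g2 the call was lost without KC1, without KC2 or without KT1 (limma adjusted p = 0.0571, 0.109 and 0.133).

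**Figure D4:**
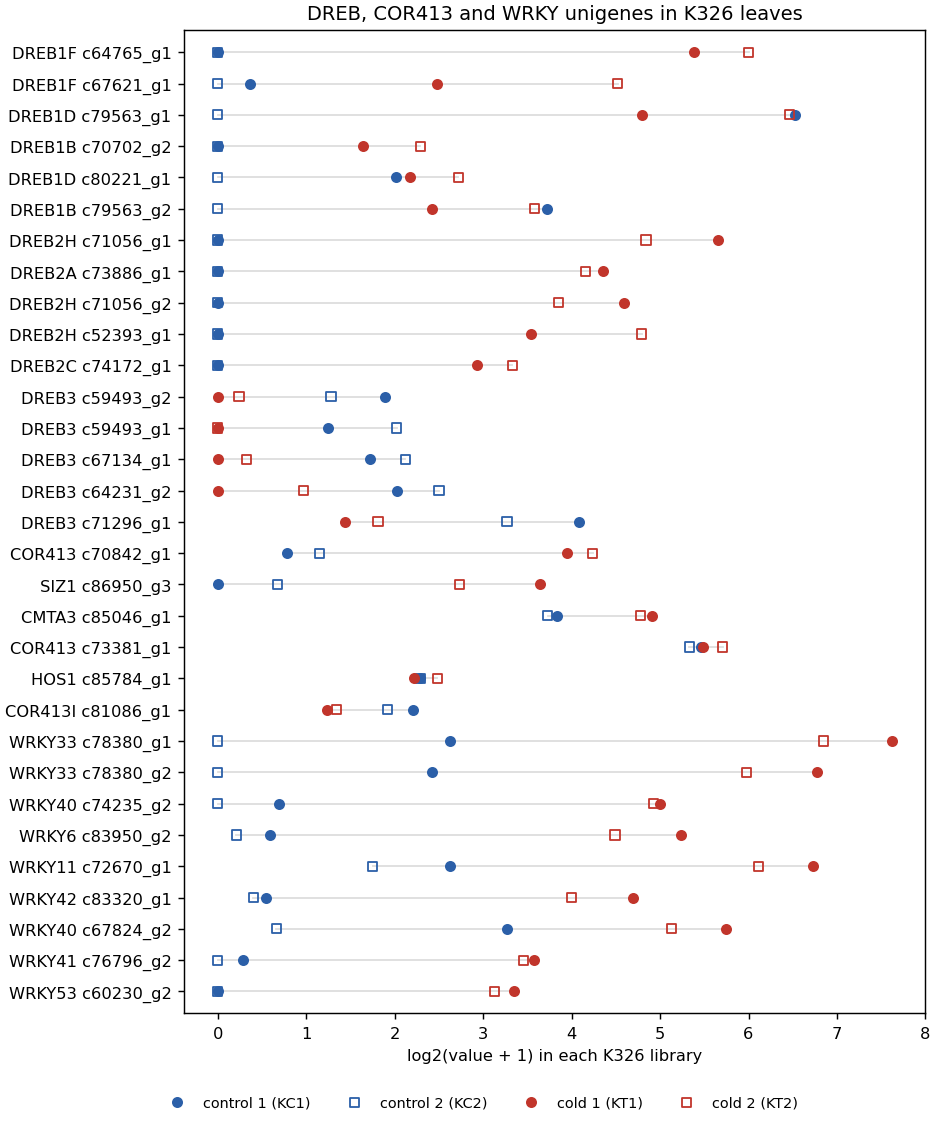
Log2(value + 1) of the tested DREB1, DREB2, DREB3, COR413, cold signalling and WRKY unigenes in each K326 library (blue, controls; red, cold; filled circles, library 1; open squares, library 2). The DREB2 and WRKY unigenes lie to the right in the cold and the DREB3 unigenes to the left, while DREB1D c79563_g1 has KC1 at 6.52 beside KC2 at 0.

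Cold-regulated membrane proteins and the regulators above the CBF factors showed a mixed picture, with 3 of 6 risen and a median log2 change of 0.64. COR413 (c70842_g1), a cold-regulated membrane protein, was at 0.78 and 1.15 in the controls and at 3.95 and 4.24 in the cold, a linear ratio of 16.7. The second COR413 unigene (c73381_g1), already at 5.46 and 5.33 in the controls, was at 5.48 and 5.71 in the cold, and COR413I (c81086_g1), the chloroplast type, was at 2.21 and 1.92 against 1.23 and 1.34. Neither passed the threshold (limma adjusted p = 0.41 and 0.0138, the latter at a log2 change of −0.78). Of these 3 unigenes only 1 changed by more than 1 on the log2 scale.

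CMTA3 (c85046_g1), a calmodulin-binding activator of CBF genes, rose from 3.83 and 3.73 to 4.91 and 4.78 (log2 change 1.07, standard error 0.14, limma adjusted p = 0.00182). SIZ1 (c86950_g3), a SUMO ligase that stabilises the CBF activator ICE1, was at 0 and 0.67 in the controls and at 3.64 and 2.73 in the cold. It was called (limma adjusted p = 0.00691), but not without KT1 (limma adjusted p = 0.0521). HOS1 (c85784_g1), a ubiquitin ligase that removes ICE1, was at 2.28 and 2.29 in the controls and at 2.22 and 2.48 in the cold, with overlapping groups (log2 change 0.06, standard error 0.20).

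Among the other ERF family factors, which bind ethylene and stress elements, 8 of 17 tested unigenes rose and none fell. All the risers but RAP2-4 (c79790_g1) passed the filter only through the cold libraries, so their direction was fixed by the filter. ABR1 (c74525_g2), a repressor of abscisic acid responses, went from 0.69 and 0 to 6.10 and 5.64 (log2 change 5.53, standard error 0.31, limma adjusted p = 0.000231). CRF6 (c64865_g1), a cytokinin response factor, was at 0 in both controls and at 5.44 and 4.81 in the cold. ERF053 (c81375_g1) went from 0.72 and 0 to 5.21 and 5.17. ERF109 (c79891_g2), a factor of the jasmonate and redox response, went from 0.99 and 0 to 4.80 and 6.15 (limma adjusted p = 0.0253), and its call was lost when any 1 of the 4 K326 libraries was left out (limma adjusted p = 0.0688 to 0.128). In 13 of the 17 KC1 was above KC2. The number that rose was 6 without KC2 and 8 without KC1.

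All 9 tested WRKY unigenes rose, to cold values of 3.13 to 7.62. For WRKY53 (c60230_g2), WRKY40 (c74235_g2), WRKY41 (c76796_g2), WRKY42 (c83320_g1) and WRKY6 (c83950_g2), the filter fixed the direction. These passed it only through the cold libraries. WRKY factors are known from defence and wounding. WRKY33 (c78380_g1), a regulator of camalexin synthesis in Arabidopsis, had values of 2.63 (KC1), 0 (KC2), 7.62 (KT1) and 6.85 (KT2) (log2 change 5.92, standard error 0.87, limma adjusted p = 0.00257), and a second unigene of the same component, c78380_g2, was at 2.42, 0, 6.78 and 5.98. WRKY40 (c74235_g2), a repressor in abscisic acid and defence signalling, went from 0.69 and 0 to 5.0 and 4.93, and WRKY6 (c83950_g2), a factor of leaf senescence, from 0.59 and 0.21 to 5.24 and 4.49, a linear ratio of 88.7. In all 9, KT1 was above KT2, and in 8 of 9, KC1 was above KC2. For a second WRKY40 (c67824_g2), with 3.27 (KC1), 0.66 (KC2), 5.74 (KT1) and 5.13 (KT2), the call was lost without KC2, KT1 or KT2 (limma adjusted p = 0.0575, 0.109 and 0.0642). Without KC2, 8 of the 9 rose.

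Of 23 other regulators of transcription, 13 rose and 5 fell. ELF4 (c63831_g1), an evening component of the circadian clock, was at 0 in both controls and at 6.29 and 5.84 in the cold (limma adjusted p = 0.000092). HBP-1b (c40491_g1), a bZIP factor named from wheat, went from 0.07 and 0 to 5.51 and 5.4, and HSFA4B (c77368_g4), a heat shock factor, from 0 in both controls to 5.87 and 4.92. ELF4, HBP-1b, HSFA4B and other risers of this list passed the filter only through the cold libraries, so their direction was fixed by the filter. NAC002 (c69854_g3), a NAC factor of the drought and wound response, was at 2.69 and 2.32 in the controls and at 6.46 and 6.68 in the cold (log2 change 4.07, limma adjusted p = 0.000372). Its component held 2 further NAC002 unigenes, which rose by 3.69 and 3.49.

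The 5 regulators that fell were named after their values were seen. UPBEAT1 (c112787_g1), a bHLH factor that represses peroxidase genes in roots, was at 4.38 and 3.90 in the controls and at 0.46 and 0.14 in the cold, a linear ratio of 70.2 in favour of the controls. TCP19 (c68026_g1), a factor of leaf growth and ageing, went from 4.13 and 3.99 to 0.79 and 0.80, and MYB39 (c82962_g2) from 4.04 and 4.21 to 0 and 1.57. PAN (c73917_g1), a bZIP factor of floral organ number, and AHL27 (c74861_g1), an AT-hook protein of leaf ageing, had control values between 1.62 and 2.42 and were at 0 in both cold libraries. UPBEAT1, TCP19, PAN and AHL27 passed the filter only through the controls, so their direction was fixed by the filter. The 5 calls were kept under each alternative that tested them, and the stricter filter did not test PAN and AHL27.

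Of 33 tested heat shock proteins and co-chaperones, 9 rose, 5 fell and 19 did not pass, with a median log2 change of 0.35. Over all tested unigenes 17.9% rose and 24.0% fell. Without KC2 the median was 0.07 with 9 risen and 4 fallen, without KC1 it was 0.86 with 9 and 2, and with CC2 in place of KC2 it was 0.13 with 8 and 7. The risers had control values from 0 to 3.97 and the fallers from 5.11 to 8.17, on a scale whose correction for length is not stated. HSP82 (c84102_g5), a fragment of a cytosolic HSP90, was at 0 in both controls and at 4.34 and 3.68 in the cold, and c84102_g1 of the same component at 0 against 4.36 and 2.69. HSP70-5 (c15315_g2) went from 2.52 and 2.14 to 5.91 and 5.33 (log2 change 3.29, standard error 0.56, limma adjusted p = 0.0042), and HSP70 (c15315_g1), of the same component, from 2.97 and 2.25 to 6.41 and 5.36.

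The fallers and the small heat shock proteins were named after their values were seen. HOP1 (c66022_g6), which links HSP70 and HSP90, was at 6.10 and 5.71 in the controls and at 3.17 and 3.37 in the cold (log2 change −2.63, standard error 0.18, limma adjusted p = 0.000324). HSP23 (c69709_g1), a small chloroplast heat shock protein, went from 8.17 and 7.97 to 6.70 and 6.29, and its call was lost without KC1 or without KT2 (limma adjusted p = 0.0554 and 0.063). Another small chloroplast protein, HSP22 (c35263_g1), went the other way, from 1.22 and 0.62 to 3.81 and 3.65, as did SHSP-2 (c62382_g1), a cytosolic class II protein, from 0.89 and 0.84 to 2.95 and 4.79.

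Within a single HSP70 component, c81601_g7 rose from 3.97 and 3.46 to 7.38 and 6.39, while c81601_g3 fell from 7.22 and 7.02 to 6.36 and 5.83, and HSC-2 (c81601_g2) was at 8.43 and 8.03 against 7.35 and 6.82 without passing (limma adjusted p = 0.0678). The fall of c81601_g3, a log2 change of −1.02, was lost under median-ratio scaling and when any of the 4 libraries was left out (limma adjusted p = 0.0638 to 0.181). Unigenes of 1 component can share reads, so the levels of these related sequences are uncertain. Under median-ratio scaling 11 members of the list rose and 3 fell.

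The heat shock list was also set beside CB-1. There, 23 of the same 33 unigenes fell and none rose, with a median log2 change of −2.30, and the change in K326 was the higher of the pair for all 33. HOP1 (c66022_g6) fell in CB-1 from 5.81 and 5.92 to 1.72 and 1.56, and HSP23 (c69709_g1) from 7.78 and 8.27 to 3.20 and 4.14. The test of the difference itself did not pass after adjustment for any of the 33 (limma adjusted p = 0.0586 to 0.644, with 29 at an unadjusted p under 0.05), and the members were taken from a sheet that puts such differences first. Over all 25779 unigenes the difference between cultivars passed for 0 in limma, with 2317 at an unadjusted p under 0.05 and 71 past the threshold by an ordinary linear model without moderation. In limma it passed for 150 without KT1, 163 without KT2, 22 under median-ratio scaling and 18 with CC2 and KC2 exchanged. Most of the K326 response was also called in CB-1. There, 3216 of the 4612 risers rose (69.7%) and 4224 of the 6188 fallers fell (68.3%). Over all tested unigenes, 14.9% rose and 19.7% fell in CB-1. The CB-1 calls were counted only among unigenes past the K326 filter. Within these, the shared calls were 84.0% of the 3830 CB-1 risers and 83.1% of the 5085 CB-1 fallers. Unigenes that respond in CB-1 but missed that filter are not in these shares.

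**Figure D5:**
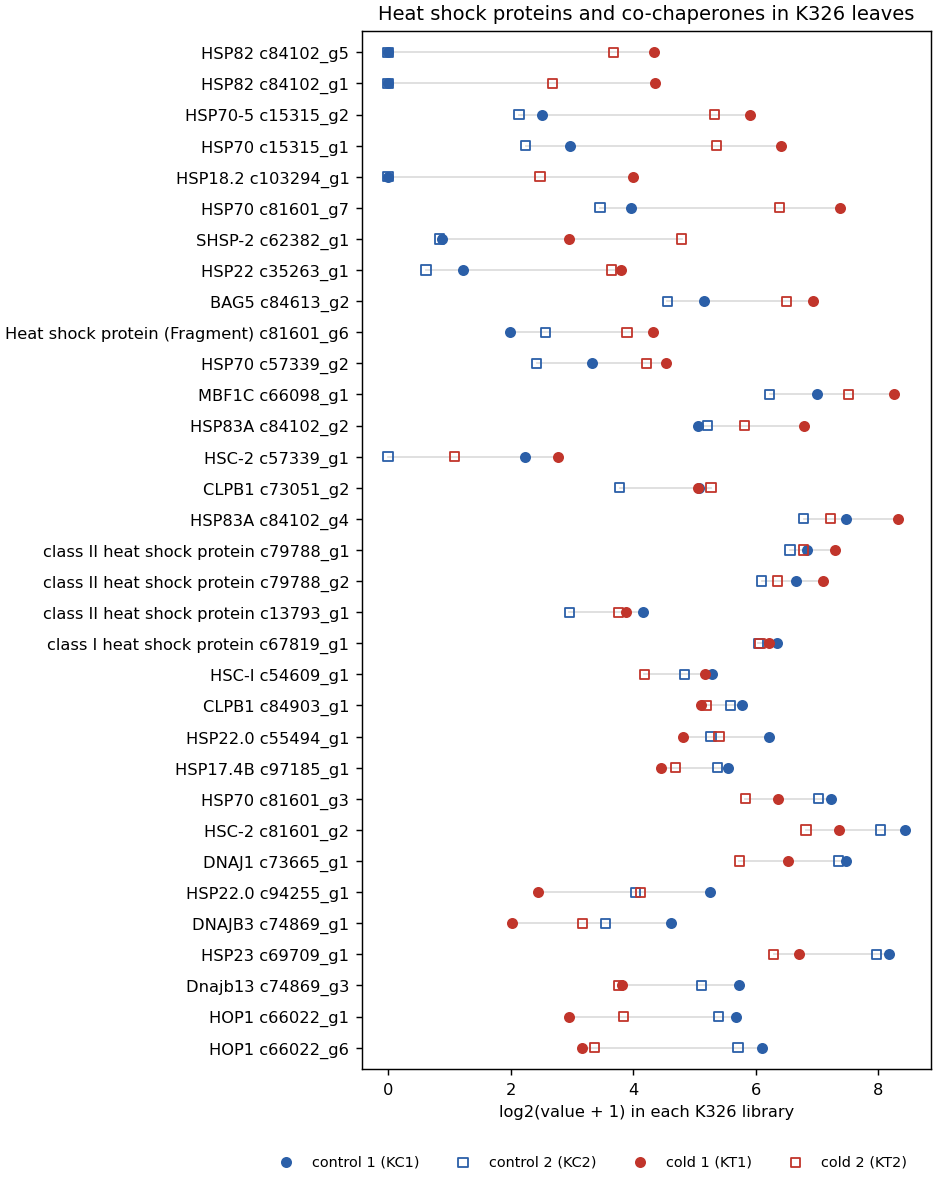
Log2(value + 1) of the 33 tested heat shock proteins and co-chaperones in each K326 library (blue, controls; red, cold; filled circles, library 1; open squares, library 2), ordered by log2 change. HSP82, HSP70-5 and small heat shock proteins at the top lie higher in the cold, and HOP1 at the bottom lies lower, at 3.17 and 3.37 against 6.10 and 5.71.

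Calcium carries the first cold signal, and 5 of 8 tested calcium signalling unigenes rose while none fell. The match to Ole e 8 (c67871_g1), a calcium-binding pollen protein of olive, had values of 4.26 (KC1), 0 (KC2), 8.81 (KT1) and 8.38 (KT2) (log2 change 6.46, standard error 1.46, limma adjusted p = 0.0116). Its call was lost without KT1 or without KT2 (limma adjusted p = 0.0725 and 0.0539), and without KC2 the change was 4.33. CIPK11 (c75409_g1), a kinase that acts with calcineurin B-like calcium sensors, went from 1.40 and 0.24 to 5.83 and 5.84, a linear ratio of 61.6. CML31 (c79475_g1), a calmodulin-like protein, went from 2.31 and 0.14 to 5.28 and 5.35, and GLR2.8 (c66067_g1), a glutamate receptor channel, from 0 and 0.80 to 4.70 and 3.11. Both lost the call without KT1 (limma adjusted p = 0.0503 and 0.0586), and GLR2.8 also without KC1 (limma adjusted p = 0.0519). ANN4 (c73521_g1), an annexin, was at 3.24 and 3.50 against 4.24 in both cold libraries, a log2 change of 0.87 and so short of the threshold.

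Of 9 tested enzymes that make or use compatible solutes, 6 rose and none fell. GAD3, BAM3, c67003_g4, c67003_g5 and c67710_g2 passed the filter only through the cold libraries, so their direction was fixed by the filter. Among the risers, the proline dehydrogenases c67003_g4 and c67003_g5 share a component, as do the trehalose-phosphate phosphatases c67710_g1 and c67710_g2. GAD3 (c71079_g2), a glutamate decarboxylase that makes GABA, was at 0 in both controls and at 6.10 and 4.09 in the cold (limma adjusted p = 0.00184). BAM3 (c45572_g1), a chloroplast β-amylase that releases maltose from starch, went from 0 and 0.40 to 3.02 and 3.86, and POX2 (c67003_g5), a proline dehydrogenase that breaks proline down, from 0.20 and 0 to 3.68 and 2.29. TPP4 (c67710_g1), a trehalose-phosphate phosphatase, had values of 2.15 (KC1), 0 (KC2), 4.70 (KT1) and 4.45 (KT2), and its call was lost without KC2, KT1 or KT2 (limma adjusted p = 0.0815, 0.0969 and 0.0722). The GABA and trehalose enzymes and the proline-degrading enzyme thus stand in the same list with opposite roles for the solutes concerned.

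Of 10 tested proteins of dehydration and light stress, 1 rose and 4 fell, and without KC2 2 rose and 5 fell. The riser was a small membrane protein (At4g30650, c10785_g1), at 2.71 and 1.81 in the controls and at 4.38 and 4.48 in the cold. The early light-induced protein (c65239_g1), a chloroplast protein of the thylakoid, fell from 8.05 and 8.0 to 5.10 and 5.85 (log2 change −2.55, standard error 0.39, limma adjusted p = 0.00301). FSD2 (c67714_g1), an iron superoxide dismutase of chloroplasts, fell from 3.97 and 3.90 to 0.77 and 2.06, and CAT2 (c24063_g1), a catalase, from 2.51 and 2.65 to 0.21 and 0.92. LT101.2 (c114265_g1), named for a low temperature-induced protein of barley, was at 2.69 and 1.35 in the controls and at 0 in both cold libraries. Its call was lost with CC2 in place of KC2, and without KT1 or KT2 (limma adjusted p = 0.0732 and 0.0642). Under median-ratio scaling 3 members rose and 4 fell.

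Unigenes listed under several hormones passed the threshold. Of 6 tested unigenes listed under abscisic acid synthesis and signalling, 4 rose and 1 fell. The list holds protein phosphatases 2C, whose part in abscisic acid signalling was not tested. The protein phosphatase 2C At1g07160 (c71477_g1) had values of 2.14 (KC1), 0.05 (KC2), 7.46 (KT1) and 7.51 (KT2), a linear ratio of 104. At2g30020 (c80156_g3), of the same class, went from 2.46 and 0 to 5.22 and 5.78, and its call was lost without KT1 or KT2 (limma adjusted p = 0.0573 and 0.0686). ABA2 (c72991_g13), an enzyme of abscisic acid synthesis, was at 0 in both controls and at 3.99 and 2.94 in the cold. ABA2 passed the filter only through the cold libraries, so its direction was fixed by the filter. The Ninja-family protein Os03g0419100 (c72101_g1), named from rice and of a family of repressors, went from 1.42 and 1.07 to 3.54 and 4.48. The phosphatase that fell, At3g05640 (c76998_g4), went from 3.57 and 3.37 to 1.74 and 2.64, and lost its call under median-ratio scaling and without KC1, KC2 or KT1 (limma adjusted p = 0.14, 0.1 and 0.192).

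In cytokinin and gibberellin signalling and turnover, 7 of 11 rose and 2 fell. GA2OX2, GAI c74180_g1 and ARR6 passed the filter only through the cold libraries, and ZOG1 only through the controls. The filter fixed the direction of these members. GA2OX2 (c70247_g1), which inactivates gibberellin, was at 0 in both controls and at 3.97 and 3.07 in the cold (limma adjusted p = 0.000631), and GAI (c74180_g1), a DELLA repressor of gibberellin responses, went from 0.30 and 0 to 2.56 and 2.57, a call that was lost without KC2, KT1 or KT2 (limma adjusted p = 0.0661, 0.0712 and 0.063). A second GAI unigene (c74180_g2), at 1.0 and 0 against 2.60 and 2.82, lost its call when any of the 4 libraries was left out (limma adjusted p = 0.0707 to 0.194). ZOG1 (c30781_g2), a zeatin glucosyltransferase known from bean, fell from 3.71 and 3.29 to 0.54 and 0.79. Of the response regulators, ARR6 (c67085_g1) rose from 0.28 and 0.37 to 1.54 and 1.73, a linear ratio of 8.49, and ARR1 (c86033_g1) from 2.62 and 2.93 to 3.92 and 4.03, a linear ratio of 2.51. AHK3 (c85178_g2), a cytokinin receptor, was at 3.93 and 3.79 against 2.60 and 3.04, a log2 change of −1.04 whose call was lost under median-ratio scaling, under quantile normalization and without KC1 or KT1. Without KC2, 5 members rose and 2 fell, without KC1, 5 rose and 1 fell, and without KT1, 4 rose and 1 fell.

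Of the jasmonate and oxylipin list 2 of 3 tested members rose. For DES1 the filter fixed the direction, as it passed only through the cold libraries. TIFY10A (c79352_g2), a JAZ repressor, went from 3.24 and 3.86 to 6.88 and 6.85, although its call was lost without KT1 (limma adjusted p = 0.0521), and the divinyl ether synthase DES1 (c56009_g2) from 0 in both controls to 3.53 and 2.03. CYP74A (c78485_g1), the allene oxide synthase that commits to jasmonate, was at 2.20 and 3.03 against 0.41 and 0.91, without passing (limma adjusted p = 0.116). For ethylene synthesis none of 3 tested unigenes passed the threshold. The log2 change was 1.34 for ACO3 (c74817_g1), the enzyme that releases ethylene, and −1.13 (c78383_g9) and −1.93 (c70755_g3) for unigenes described only as homologs of that oxidase (limma adjusted p = 0.168, 0.129 and 0.0766).

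All 6 tested U-box ubiquitin ligases rose, and the 6 calls were also made with CC2 in place of KC2. Their median log2 change was 3.67 without KC2 and 4.88 without KC1. PUB23 (c74081_g1), PUB21 (c74253_g1) and PUB45 (c75061_g1) passed the filter only through the cold libraries, so their direction was fixed by it. These PUB proteins mark other proteins for degradation, and several are known as brakes of drought and immune responses. PUB19 (c83880_g1) had values of 1.47 (KC1), 0 (KC2), 6.58 (KT1) and 7.07 (KT2) (log2 change 6.09, standard error 0.63, limma adjusted p = 0.000899). PUB23 (c75519_g1) went from 1.64 and 0 to 5.56 and 5.73, PUB21 (c74253_g1) from 0 in both controls to 4.70 and 4.31, and PUB27 (c76825_g1) from 2.97 and 1.04 to 6.34 and 6.26. The cold libraries lay close together for PUB23 (c75519_g1) and PUB27, and farther apart for PUB19 and PUB21. Only PUB27 lost its call without KT1 (limma adjusted p = 0.0544).

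Of 13 tested disease resistance proteins and receptor kinases, 8 rose and none fell, and a further 6 of the 19 members missed the filter. FLS2 (c85695_g3), the receptor of bacterial flagellin, was at 0 in both controls and at 4.29 and 2.85 in the cold (limma adjusted p = 0.00153). SOBIR1 (c80631_g1), a partner of receptor-like proteins, went from 3.19 and 1.89 to 5.95 and 5.58, and LECRK63 (c82272_g1), a lectin receptor kinase, from 0.06 and 0 to 4.05 and 2.85, a call lost without KT1 (limma adjusted p = 0.0502). At4g11170 (c86723_g3), a resistance protein, went from 1.60 and 1.74 to 5.30 and 4.02, and was not called with CC2 in place of KC2 (limma adjusted p = 0.0646). Of the 13 tested members 3 were at 0 in both controls, and 6 were higher in KC1 than in KC2.

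Peroxidases and glutathione S-transferases, enzymes of the oxidative response, moved apart. Of 9 tested members 3 rose, all of them glutathione S-transferases, which attach glutathione to toxic compounds, and 3 fell, all of them peroxidases. The transferase c58688_g2 went from 0 and 0.85 to 3.28 and 3.07, and GST3 (c58688_g3), of the same component, from 0 and 1.14 to 2.78 and 3.13. PER21 (c62047_g3), a class III peroxidase of the cell wall, went from 3.26 and 2.61 to 1.15 and 0, and PNC1 (c64119_g2), a cationic peroxidase named from peanut, from 3.58 and 1.5 to 0.11 and 0. The peroxidase calls were the less stable. Without KC1 none of them passed (limma adjusted p = 0.0786 for PER21 c62047_g3 and 0.0805 for PNC1), and with CC2 in place of KC2 only 1 did.

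In the list of wax synthesis, lipid transfer and cuticle, 2 of 9 rose and 4 fell. ABCG32 (c68383_g1), an exporter of cutin precursors, went from 1.02 and 1.78 to 6.84 and 6.17, a linear ratio of 53.4 (log2 change 5.11, standard error 0.32, limma adjusted p = 0.000252). The lipase At1g28650 (c82304_g1) was at 0 in both controls and at 6.43 and 5.63 in the cold. A lipid-transfer protein (c92129_g1) fell from 8.33 and 8.93 to 4.49 and 5.69, and DIR1 (c27155_g1), a lipid-transfer protein of systemic resistance, from 4.32 and 5.32 to 0.99 and 1.41.

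Of 12 transposon-derived reading frames 6 passed the filter, and 3 of these rose. The pol-like frame c86884_g3 was at 0 in both controls and at 4.86 and 5.07 in the cold (limma adjusted p = 0.00168). HARBI1 (c79866_g1), a transposase-like gene, had values of 6.62 (KC1), 3.18 (KC2), 7.71 (KT1) and 8.07 (KT2), and did not pass (limma adjusted p = 0.0731). Of the flower, pollen and fruit genes OLE6 (c51009_g1), the match to a pollen allergen of olive, rose from 0.19 and 0 to 2.02 and 2.32, beside the control libraries' differing levels of such genes given above.

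Over the 20 lists and the organ markers, 127 members were called, 1 of them an organ marker. Of these calls 96 were kept under each alternative that tested them: 69 were tested under all 14, and 27 were not tested under the stricter filter. The calls were lost most often without KT1 (25) and without KT2 (18), and for 14 each without KC1 and without KC2. No called member changed sign under an alternative that tested it. Many of them passed the filter only through a single group, which left little or no room to change sign. For such members the kept sign is no support for the direction. Of the risers, 2857 (61.9%) were higher in KT1 than in KT2, against 37.0% of all tested unigenes. Of the fallers, 3735 (60.4%) were lower in KT1 than in KT2, close to the 57.6% of all tested unigenes. Of the tested list members 118 were higher in KC1 than in KC2 and 44 lower, where 54.9% of all tested unigenes were higher and 38.2% lower.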

How the data were processed

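Each of the 8 samples of tobacco leaf was sequenced as 1 RNA library, with 2 in each group. The authors assembled all reads into unigenes with Trinity, mapped them with bowtie and estimated abundances with RSEM. They deposited log2(value + 1), and versions and the scaling of the value are not given in the sources used here. The linear values sum to 409394 to 469248 a library. Since the reads behind each value are unknown, no counting interval is given.

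The values were fitted with limma 3.58.1 in R 4.3.3 (4 group means, 8 libraries, variance trend), with Benjamini-Hochberg adjustment over the 25779 unigenes of at least 1 in 2 K326 libraries. The study's thresholds were used. Fold changes on this scale understate the change of low unigenes. Linear ratios compare group means after subtracting the pseudocount of 1. The fit was tested on simulated data. Alternatives changed the pseudocount, filter, scaling, moderation, libraries and labels.

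Members and lists were chosen with earlier results of these data known. In each list up to 4 called unigenes with the widest change and non-overlapping libraries were named, with all members of the DREB1, DREB2, DREB3 and COR413 lists and the widest of all unigenes. At most 2 risers and 2 fallers without a name are printed by number. Further members were named after their values were seen. Replicate numbers did not pair the libraries. Of the unigene numbers, 0 matched the RefSeq gene table.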

Additional observations from a re-analysis of the deposited data

Results flagged for a closer look

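In 3 of the unigenes named, both K326 cold libraries lay above both K326 controls while both CB-1 cold libraries lay below both CB-1 controls. HSP22 (c35263_g1) changed by 2.81 in K326 and by −0.72 in CB-1 on the log2 scale, where its values were 0.60 (CC1), 1.66 (CC2), 0.52 (CT1) and 0.30 (CT2). The heat shock protein fragment c81601_g6 changed by 1.84 in K326 and by −3.48 in CB-1, with 3.12 (CC1), 3.85 (CC2) and 0 in both CB-1 cold libraries. ACO3 (c74817_g1) changed by 1.34 in K326, without passing the threshold, and by −0.92 in CB-1. The test of the difference between the cultivars did not pass for any of them (limma adjusted p = 0.136, 0.0586 and 0.605). Their names come from the sheet that puts differences between the cultivars first.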

How the results depend on the processing

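The count of called unigenes (10800) stayed within 1.5 times under 13 of the 14 alternatives. With the stricter filter of a linear value of at least 5, which left 11458 unigenes to test, it was 5297. Leaving out 1 K326 library gave 8159 to 10047. With the replicate number as a block it was 10618. The block is not a pairing given by the labels, and same-numbered libraries did not deviate together (correlations of −0.35 to 0.04 over the 6 pairs of groups). The difference between the cultivars passed for 0 unigenes in limma, for 22 under median-ratio scaling, for 71 without moderation, for 18 with CC2 and KC2 exchanged, for 0 with the replicate block, and for 0 to 163 when 1 K326 library was left out (150 without KT1, 163 without KT2). The cause was not tested. Fits of K326 alone or with the 4 controls as 1 group give no such difference. In place of the 127 list members called, 98 to 135 were called in the fits that left out no library, and 103 to 122 in those that left out 1. Among named unigenes, those that changed sign had not passed the threshold: over the fits without 1 K326 library the change of DREB1D (c79563_g1) ran from −0.89 to 5.63, of DREB1B (c79563_g2) from −0.71 to 3.0 and of HOS1 (c85784_g1) from −0.07 to 0.19. The unknown number of reads behind each value and 2 libraries a group limit low unigenes most.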
